A study of Homo sapiens with 9 samples.

Results

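De novo fatty acid synthesis was followed in the established human glioblastoma line LN229 (a label also spells it LN299) through 9 genes chosen by symbol: SLC25A1, ACLY, ACSS2, ACACA, ACACB, MID1IP1, FASN, MLXIPL and PNPLA3. All 9 were among the 23727 Ensembl genes of the count table, each under 1 identifier. The 9 RNA-seq libraries formed 3 groups of 3: untreated cells at 0 h, cells given 500 µM sodium formate for 8 h, and cells given 500 µM sodium formate for 24 h. The medium of every group held glucose at 17 mM, glutamine at 2 mM and fetal bovine serum at 10%. Every untreated library belonged to 0 h, so formate and time in culture cannot be told apart. The data describe 1 cell line, and nothing in the labels says that replicates came from separate cultures, so p-values measure only the spread between these libraries. Of the 9 genes, 8 passed the filter on low counts and were tested; MLXIPL did not.

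Cells build palmitate in the cytosol from acetyl-CoA and malonyl-CoA. Citrate leaves the mitochondria through the citrate carrier, encoded by SLC25A1, and ATP-citrate lyase (ACLY) splits it into acetyl-CoA and oxaloacetate; ACSS2 makes acetyl-CoA from acetate instead. Acetyl-CoA carboxylases, encoded by ACACA and ACACB, turn acetyl-CoA into malonyl-CoA, and fatty acid synthase (FASN) joins the units with NADPH. In many tissues the transcription factors SREBP and ChREBP control these genes, and tumour cells, gliomas among them, often make fatty acids by this route.

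The promoter letters of genes that share a pathway can be read beside their expression. RefSeq windows of 250 bases upstream of a transcription start, on GRCh38.p14, were found for 7 of the 9 genes (all but FASN and PNPLA3), with 12 starts in all. Both strands were searched for CACGTG (the E-box), TCACNCCAC (the core of a sterol response element), CCAAT (the NF-Y box) and GGGCGG (the Sp1 box). None of the 12 windows held CACGTG, which 6.34% of 35116 human promoter windows of this length hold. One window, that of MID1IP1, held TCACNCCAC, against 0.883% of all windows. CCAAT stood in 8 of the 12 windows, from 6 of the 7 genes (32% of all windows). GGGCGG stood in 10 of the 12, from all 7 genes (42.6% of all windows). These shares are per window and do not apply to the counts of genes, which had up to 3 starts each. The windows of the 2 ACLY starts overlap and share their CCAAT boxes. GGGCGG was absent from the windows of ACACA start 3 and ACACB start 1, which held 43.6% and 45.2% G and C. Other windows held up to 81.6%, and the part of base composition was not tested. A pair of exact CACGTG boxes 5 bases apart, a strict form of the carbohydrate response element that ChREBP is known to bind, stood in none. Only 1 of the 35116 windows held that pair, so its absence from 12 windows tells nothing. Looser forms of the element were not searched. These letters are a description of the windows and do not show binding. The windows of MID1IP1, of 1 start of ACLY and of the most upstream start of ACACA are printed because the first holds the sterol letters, the second holds a pair of CCAAT boxes, and the third holds neither. Capitals mark TCACNCCAC and CCAAT on either strand, and each run is 5′ to 3′ on the gene's strand.
MID1IP1, chrX:38801209-38801458, plus strand: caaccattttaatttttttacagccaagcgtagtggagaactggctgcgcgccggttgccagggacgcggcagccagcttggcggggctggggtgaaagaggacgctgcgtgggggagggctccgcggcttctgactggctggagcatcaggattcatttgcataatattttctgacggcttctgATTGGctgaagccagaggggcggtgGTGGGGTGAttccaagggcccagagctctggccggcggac
ACLY, chr17:41919023-41919272, minus strand: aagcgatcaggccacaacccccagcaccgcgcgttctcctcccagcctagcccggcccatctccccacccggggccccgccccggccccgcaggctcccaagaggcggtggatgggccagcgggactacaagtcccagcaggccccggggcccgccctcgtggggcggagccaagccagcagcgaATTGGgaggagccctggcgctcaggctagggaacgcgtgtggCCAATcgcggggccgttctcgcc
ACACA, chr17:37406837-37407086, minus strand: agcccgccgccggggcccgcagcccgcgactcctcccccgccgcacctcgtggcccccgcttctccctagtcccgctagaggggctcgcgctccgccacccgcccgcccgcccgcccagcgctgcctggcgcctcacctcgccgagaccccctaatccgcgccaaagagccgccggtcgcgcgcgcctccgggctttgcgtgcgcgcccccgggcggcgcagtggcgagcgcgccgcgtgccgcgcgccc
In MID1IP1 the sterol letters began 40 bases before the start, on the minus strand of the window (GTGGGGTGA), and a CCAAT box on the same strand began 65 bases before it. The CCAAT boxes of ACLY began 65 and 23 bases before its start.

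The libraries held 22222298 to 25848242 counts each, and 3 counts corresponded to 0.116 to 0.135 CPM (the count after scaling to library size, here with TMM factors of 0.920 to 1.065). Untreated replicate 1 stood apart from the other untreated libraries: chi-square per degree of freedom over genes was 57.6 and 60.5 against them, and 8.63 between replicates 2 and 3. Replicate 1 also differed most at 8 h (22.6 and 23.7, against 10.9 between replicates 2 and 3). At 24 h its values were 13.9 and 24.5, against 8.86. No pair of libraries was alike to within sampling noise. The line's label was checked against marker genes: VIM ran from 3199 to 6284 CPM and NES from 887.5 to 1011 CPM, while GFAP, which defines astrocytes, stayed between 0.129 and 0.426 CPM. Summed adipocyte markers (2 of 4 in the table, PLIN1 and CIDEC) stayed under 0.475 CPM and summed hepatocyte markers (3 of 4) under 1.11 CPM in every library. Summed mesenchymal markers (4 of 5 in the table) ran from 9773 to 12830 CPM at 0 h and from 7180 to 8883 CPM at 24 h, and glial markers (6 of 7) from 1112 to 1249 and from 1382 to 1387 CPM. Within these lists S100B (log2 fold change 1.38) was called higher at 24 h against 0 h, while NES (0.02), SOX2 (-0.20), OLIG2 (0.52), VIM (-0.46), FN1 (-0.54) and CD44 (-0.38) were not called. The part of these markers in the results below was not tested.

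In untreated cells the genes differed widely in level per length, given as RPKM (CPM per kilobase of exon in GENCODE release 29). FASN was the highest at 61.0 ± 9.34 RPKM (SD, n = 3), above 96.9% of the 22063 genes with a value. SLC25A1 followed at 51.2 ± 8.89 RPKM, and its libraries overlapped those of FASN. ACLY stood at 44.2 ± 0.821 RPKM, just below SLC25A1 without overlap. ACSS2 (10.3 ± 1.53 RPKM) lay 4.31-fold under ACLY. ACACA (6.26 ± 1.05) and MID1IP1 (5.20 ± 0.621) came next and overlapped each other. PNPLA3 was at 1.52 ± 0.543 RPKM and ACACB at 0.430 ± 0.0364, so the mRNA of the ACACA carboxylase exceeded that of ACACB in every untreated library, by 13.2-fold, 16.4-fold and 13.9-fold in replicates 1, 2 and 3. MLXIPL was last at 0.00573 RPKM, a level made of 2 counts in all 3 libraries. At 24 h the order was the same except that ACLY (56.9 ± 1.09 RPKM) stood above SLC25A1 (55.1 ± 5.28) with overlap, and FASN (111 ± 5.27) was 1.96-fold over ACLY. The plot of RPKM by gene shows the 3 groups side by side.

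**Figure D1:**
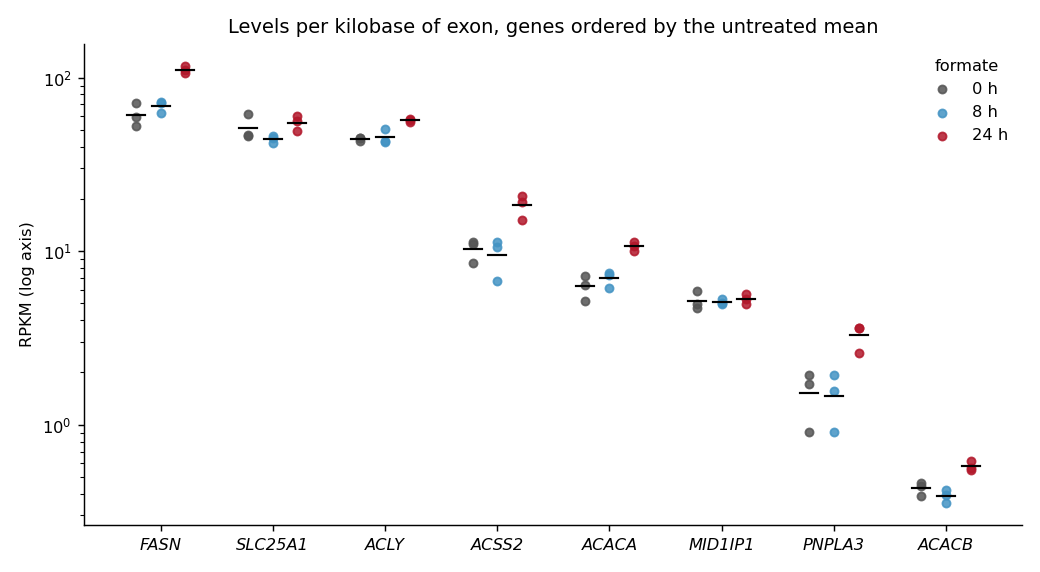
RPKM of the 8 tested genes on a log axis, ordered by the untreated mean; each point is a library and each bar the mean of 3, with the groups 0 h, 8 h and 24 h from left to right. FASN is highest in each group and ACACB lowest, between 0.354 and 0.619 RPKM.

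After 24 h of formate, FASN, ACACA and ACSS2 rose over the untreated cells, by 1.82-fold, 1.71-fold and 1.79-fold. All 3 libraries of 24 h lay above all 3 of 0 h for these genes. PNPLA3, ACLY and ACACB did not pass the threshold, though their libraries did not overlap either, with fitted folds of 2.14, 1.29 and 1.33. SLC25A1 and MID1IP1 had fitted folds of 1.08 and 1.03, with overlapping libraries. No gene of the 9 was called lower. Significance was read from edgeR's quasi-likelihood p-values, adjusted by Benjamini-Hochberg over all 15273 tested genes. At 0.05, 3 of the 8 tested genes thus passed, all higher, against 2.47% of all tested genes called higher and 4.25% called in either direction. Libraries lay wholly above those of 0 h for 6 of the 8, against 15.9% of all tested genes. The median log2 fold change was 0.59 over the 8 genes and 0.01 over all tested genes. With the replicate number of the titles as a block, 6 of the 8 passed, all higher, against 12.6% of all tested genes called higher (24.1% in either direction), and DESeq2 called 5 (10.8%). When either replicate 2 or replicate 3 was dropped from the 24 h group, 0 of all tested genes passed, the 8 included. The log2 fold changes were then 0.86 and 0.82 for FASN and 0.76 and 0.81 for ACACA. In these 2 fits 5 and 6 of the 8, and 2550 and 2563 of all genes, had an unadjusted p under 0.05. In the full fit 6 of the 8 and 4027 of all tested genes (26.4%) did. Without replicate 1 of 8 h, 5 of the 8 and 765 of all genes passed (649 of all in the full fit), ACLY and PNPLA3 being the additional ones. Dropping only untreated replicate 1, the library that stood apart, gave log2 fold changes of 0.75 for FASN, 0.63 for ACACA and 0.70 for ACSS2 and left FASN and ACACA past the threshold, with 356 of all genes; dropping replicate 1 of all 3 groups left 5 of the 8 and 2616 of all genes past it. In bulk libraries, more cells of a kind and more RNA per cell cannot be told apart.

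**Figure D2:**
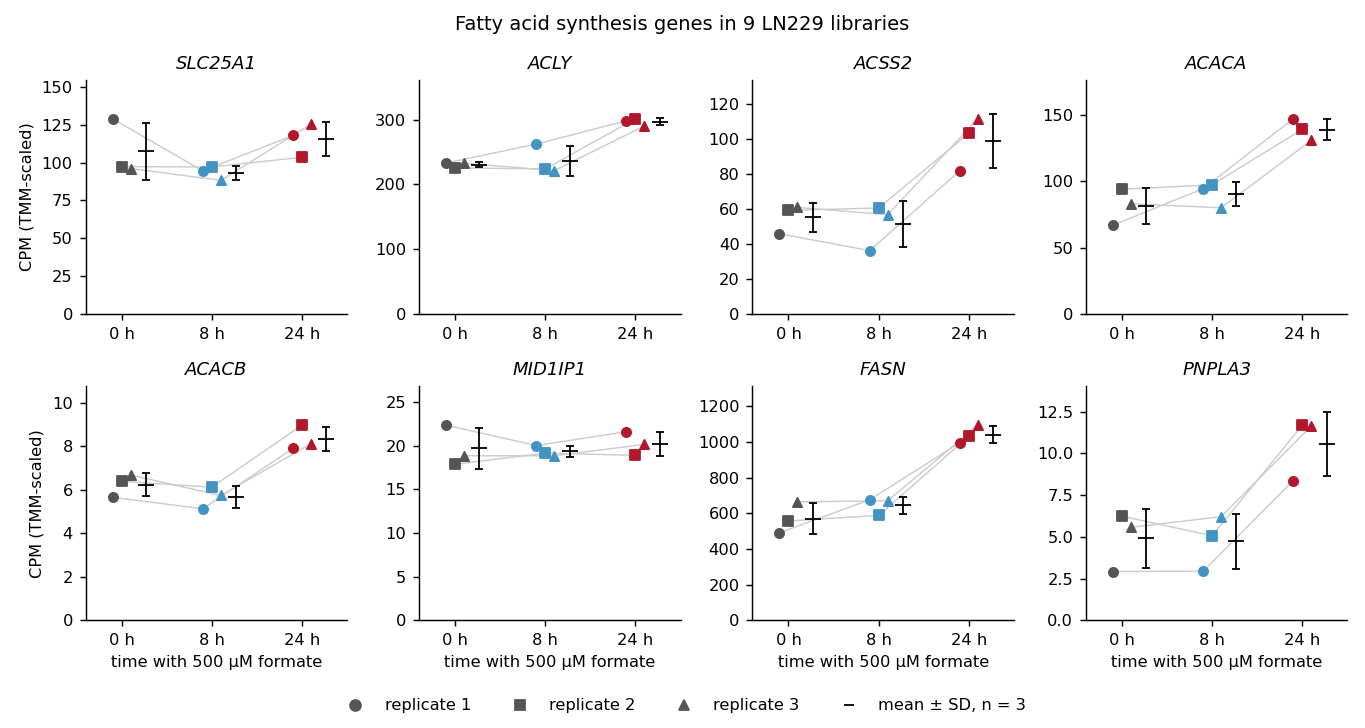
CPM of the 8 tested genes in each of the 9 libraries at 0 h, 8 h and 24 h with formate; symbols and grey lines follow the replicate number, and bars give mean ± SD (n = 3). The 24 h libraries of FASN (997 to 1095 CPM) and ACACA (131 to 147 CPM) sit above all others, and those of MID1IP1 overlap at every time.

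Of the genes that supply acetyl-CoA, SLC25A1 (ENSG00000100075, GRCh38 chromosome 22, 19175575 to 19178830, minus strand) held 129, 97.3 and 96.0 CPM in untreated replicates 1, 2 and 3, 94.5, 97.1 and 88.2 CPM after 8 h, and 118, 104 and 125 CPM after 24 h. Untreated replicate 1 was the highest of the 9 libraries, so those of 0 h overlapped those of 24 h, while all 3 of 8 h lay below all 3 of 24 h. The fitted log2 fold change at 24 h was 0.11 with a 95% interval from -0.17 to 0.38 (adjusted p 0.606), and within replicate number 1 the 24 h library was the lower (0.914-fold). GENCODE holds 5 pseudogene copies of SLC25A1, which leaves part of its counts uncertain.

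ACLY (ENSG00000131473, chromosome 17, 41866908 to 41930542, minus strand) held 233, 226 and 233 CPM at 0 h, 262, 224 and 221 CPM after 8 h, and 298.5, 301.4 and 290.4 CPM after 24 h. Its untreated libraries were the least spread of the 9 genes, with a coefficient of variation of 1.86%. All 24 h libraries were above every other library, by a small step: the log2 fold change was 0.36 (SE 0.0977, adjusted p 0.0575 by edgeR's test). With the replicate block the adjusted p was 0.00915 at the same log2 fold change of 0.36, and 7 of the 9 blocked fits that left out 1 library called ACLY, those without replicate 2 of 0 h or of 24 h being the exceptions. Within replicate numbers 1, 2 and 3 the 24 h library held 1.28, 1.34 and 1.25 times the untreated level.

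ACSS2 (ENSG00000131069, chromosome 20, 34872146 to 34927962, plus strand) held 45.8, 59.1 and 60.8 CPM at 0 h, 36.1, 60.5 and 56.7 CPM after 8 h, and 81.8, 103 and 111 CPM after 24 h. Replicate 1 was the lowest of its group at each time. At 24 h the log2 fold change was 0.84 (SE 0.190, adjusted p 0.0353). The rise was alike within the replicate numbers, at 1.79, 1.75 and 1.83 times the untreated level in numbers 1, 2 and 3. ACSS2 did not pass without any single untreated library (adjusted p 0.0782, 0.0519 and 0.0527 without replicates 1, 2 and 3), without replicate 3 of 8 h, or without replicate 2 or 3 of 24 h (0.152 and 0.175). With the block, it passed in all 9 fits that left out 1 library.

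Of the carboxylases, ACACA (ENSG00000278540, chromosome 17, 37084988 to 37406818, minus strand) encodes the cytosolic enzyme that commits acetyl-CoA to fatty acids. It held 67.0, 94.1 and 83.2 CPM at 0 h, 94.5, 97.4 and 80.1 CPM after 8 h, and 147, 139 and 131 CPM after 24 h. The lowest 24 h library was above the highest earlier one. The log2 fold change was 0.77 (SE 0.129, adjusted p 0.0199). Replicate number 1 gave the largest ratio of 24 h to 0 h, 2.197, against 1.48 and 1.57 in numbers 2 and 3. The adjusted p was 0.108 without replicate 2 of 24 h and 0.0979 without replicate 3 of 24 h.

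ACACB (ENSG00000076555, chromosome 12, 109116595 to 109268226, plus strand) encodes the carboxylase at the mitochondrial surface, whose malonyl-CoA is known to restrain fatty acid oxidation. It held 5.66, 6.39 and 6.68 CPM at 0 h, 5.13, 6.12 and 5.74 CPM after 8 h, and 7.91, 8.97 and 8.12 CPM after 24 h. The 24 h libraries were again the highest, and the log2 fold change was 0.42 (SE 0.141, adjusted p 0.106). With the replicate block the adjusted p was 0.0277, but only 2 of the 9 blocked fits that left out 1 library, which dropped replicate 3 of 0 h or replicate 1 of 8 h, called ACACB (adjusted p from 0.0397 to 0.139 over the 9), and DESeq2 did not (adjusted p 0.0725). These values rest on 113 to 208 counts per library.

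MID1IP1 (ENSG00000165175, chromosome X, 38801432 to 38806537, plus strand) encodes a small protein that promotes the assembly of acetyl-CoA carboxylase into active polymers. It held 22.4, 17.9 and 18.9 CPM at 0 h, 20.02, 19.2 and 18.9 CPM after 8 h, and 21.6, 18.9 and 20.2 CPM after 24 h. The groups overlapped fully. The log2 fold change at 24 h was 0.04 with a 95% interval from -0.21 to 0.29 (adjusted p 0.844), and it was -0.03 when untreated replicate 2 was dropped and -0.01 when replicate 1 was dropped from 24 h. The interval leaves out a change of the size fitted for FASN or ACACA. The window of MID1IP1 is the one with TCACNCCAC printed above.

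FASN (ENSG00000169710, chromosome 17, 82078333 to 82098332, minus strand) held 492, 557.5 and 665 CPM at 0 h, 676, 589 and 671 CPM after 8 h, and 997, 1033 and 1095 CPM after 24 h. The 24 h libraries were the highest by a wide step, while those of 0 h and 8 h overlapped. The log2 fold change at 24 h was 0.87 with a 95% interval from 0.58 to 1.15 and an adjusted p of 0.0167, larger than that of 96.3% of all tested genes. Within replicate numbers 1, 2 and 3 the 24 h level was 2.03, 1.85 and 1.65 times that at 0 h. FASN passed without each of the untreated and 8 h libraries and without replicate 1 of 24 h; the adjusted p was 0.102 without replicate 2 of 24 h and 0.0979 without replicate 3.

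PNPLA3 (ENSG00000100344, chromosome 22, 43923739 to 43964488, plus strand) encodes a lipid droplet protein of the patatin family whose gene is a known target of SREBP-1c. It held 2.92, 6.24 and 5.58 CPM at 0 h, 2.95, 5.07 and 6.21 CPM after 8 h, and 8.37, 11.7 and 11.6 CPM after 24 h. Replicate 1 was the lowest at each time, at 62 counts in the untreated library. The log2 fold change at 24 h, 1.10, was the highest of the 8 genes, but its SE was 0.298 and its adjusted p 0.06. With the replicate block the log2 fold change was 1.13 (SE 0.152, adjusted p 0.000614). Within replicate numbers 1, 2 and 3 the 24 h level was 2.86, 1.87 and 2.09 times that at 0 h. Exons of SAMM50 on the same strand overlap 4.58% of its exons.

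MLXIPL (ENSG00000009950, chromosome 7, 73593194 to 73624543, minus strand) encodes ChREBP, the glucose-sensing transcription factor of lipogenic genes. It had 0, 1 and 1 counts at 0 h, 0, 0 and 1 after 8 h, and 2, 4 and 3 after 24 h. All 9 libraries held at most 4 counts, so MLXIPL was barely detectable at this depth. From the summed counts (9 against 2), 24 h stood at 4.65 times 0 h, with an exact binomial 95% interval from 0.963 to 44.2 that covers counting error only. Against 8 h (9 against 1 count) the ratio was 9.05, with an interval from 1.25 to 397. In the edgeR fit with no filter on low counts its adjusted p was 0.267 at 24 h against 0 h and 0.191 at 24 h against 8 h.

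The second comparison asked for changes after 8 h of formate. None of the 8 tested genes passed edgeR's test against 0 h (adjusted p of 0.9999 for each), and 0.0% of all tested genes did. None had an unadjusted p under 0.05 (0.517% of all tested genes) or libraries that lay apart (3.31%). DESeq2 and the fit with the replicate block also called none. If no gene changed, a well-calibrated test would put a share of 0.05 of genes under that p. Only 79 of the 15273 tested genes were under it, and 155 with the replicate block. The test was thus cautious at 8 h, and the lack of calls does not show that levels stayed the same. The fitted log2 fold changes ran from -0.20 for SLC25A1 to 0.18 for FASN, with a median of -0.04, against -0.02 over all tested genes. For FASN the 95% interval ran from 0.930-fold to 1.37-fold and for ACACA from 0.915-fold to 1.35-fold. Replicate number 1 differed from the others here: its 8 h library held 1.38 times the untreated FASN and 1.41 times the untreated ACACA, where numbers 2 and 3 lay between 0.963 and 1.06 for both genes. In ACSS2 the 8 h library of number 1 was lower than its untreated library (0.789-fold). Those numbers had no test of their own.

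The third comparison set 24 h against 8 h of formate and so asked whether the levels moved between the treatment times. ACSS2, FASN and ACACA rose, by 1.93-fold, 1.61-fold and 1.54-fold, with adjusted p-values of 0.0250, 0.0231 and 0.0288 by edgeR's test. These 3 of the 8 tested genes compare with 2.84% of all tested genes called higher and 4.56% called in either direction, and DESeq2 called 6 of the 8 (9.73%). Libraries of 24 h lay wholly above those of 8 h for 7 of the 8 (18.2% of all tested genes), MID1IP1 being the exception. ACACB (log2 fold change 0.56, adjusted p 0.05002) and PNPLA3 (1.1519, 0.0512) fell just short of the threshold, ACLY (0.33) had an adjusted p of 0.0751, SLC25A1 (0.31) one of 0.172 and MID1IP1 (0.06) one of 0.768. Dropping any 1 of 4 libraries (replicates 1 and 3 of 8 h, replicates 2 and 3 of 24 h) left none of the 8 past the threshold, where 0 of all tested genes passed too, or 53 without replicate 3 of 8 h (696 in the full fit). Dropping untreated replicate 1, which enters only the shared spread, let 7 of the 8 and 2545 of all genes pass, and FASN alone of the 3 did not pass when replicate 2 of 8 h was dropped. With unadjusted p-values under 0.05, 7 of the 8 (22.8% of all tested genes) passed in the full fit. The comparisons of 24 h with 0 h and with 8 h share the 24 h libraries. One F test across the 3 groups called FASN, ACACA and ACSS2 again, with adjusted p-values of 0.0176 for FASN, 0.0234 for ACACA and 0.0309 for ACSS2 (3.64% of all tested genes were called; with the replicate block 6 of the 8 and 19.6% were).

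**Figure D3:**
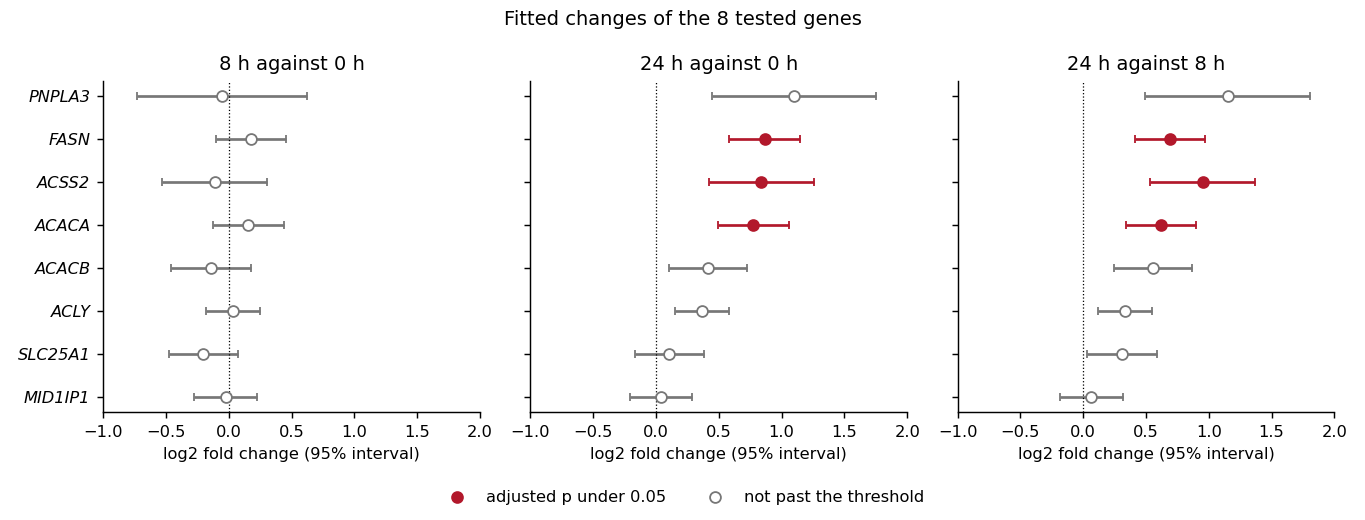
Fitted log2 fold changes with 95% intervals for the 8 tested genes in the 3 comparisons; filled red points passed an adjusted p of 0.05. At 8 h all intervals span 0, and at 24 h those of SLC25A1 and MID1IP1 still do against 0 h.

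Ratios of genes within a library, per exon length, do not depend on its depth. The ACLY to FASN ratio was 0.851, 0.726 and 0.628 at 0 h, 0.696, 0.682 and 0.592 after 8 h, and 0.537, 0.523 and 0.476 after 24 h. All 3 libraries of 24 h were below those of 0 h, and the mean log2 ratio differed by -0.51. The ACSS2 to ACLY ratio was 0.190, 0.254 and 0.253 at 0 h, 0.1335, 0.262 and 0.248 after 8 h, and 0.265, 0.332 and 0.372 at 24 h, a log2 difference of 0.47 between 24 h and 0 h with no overlap. The ACACA to ACACB ratio was 13.2, 16.4 and 13.9 at 0 h, 20.5, 17.7 and 15.5 after 8 h, and 20.8, 17.3 and 18.0 at 24 h. Its mean log2 value was 3.85 at 0 h, 4.16 after 8 h and 4.22 at 24 h, a difference of 0.37 between 24 h and 0 h with no overlap, while the 8 h libraries overlapped both groups. Each of these 3 gave p = 0.1 in a two-sided exact permutation test (adjusted p 0.133 over 4 ratios), the smallest p this test allows with 3 libraries against 3, so it could not reach 0.05. The FASN to ACACA ratio, from 8.23 to 11.1 at 0 h and from 9.40 to 11.6 at 24 h, overlapped (log2 difference 0.09, exact permutation p = 0.6), and it was -0.03 without untreated replicate 2.

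Neighbouring steps were read from 10 lists with 126 genes, of which 115 were tested; the plot of their changes sets them beside the 8 genes. Among 11 tested regulators of SREBP and LXR, 3 rose at 24 h against 0 h and none fell (median log2 fold change 0.13). SREBF1, which encodes the SREBP that mainly drives fatty acid genes, went from 52.5, 78.9 and 88.9 CPM to 153, 139 and 148 CPM (log2 fold change 0.9968, adjusted p 0.0311). SREBF2, whose product mainly drives sterol genes, went from 97.9, 139 and 150 CPM to 266, 267 and 289 CPM (1.08, adjusted p 0.0167). INSIG1, which encodes the protein that retains SREBP in the endoplasmic reticulum and is itself an SREBP target, had a log2 fold change of 1.71 (adjusted p 0.0202). In each of these 3 genes, replicate 1 was the lowest untreated library. Of the 7 tested genes around ChREBP, none was called in either direction (median -0.03). MLX, the obligate partner of ChREBP, had a log2 fold change of -0.22 (adjusted p 0.214), and MLXIP, its paralogue MondoA, one of -0.02 (adjusted p 0.922) at 71.6 ± 3.31 CPM untreated. THRSP, the paralogue of MID1IP1, was not found in the count table by its symbol and so was not tested.

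Of the 17 tested genes of desaturation and elongation, 5 rose at 24 h, none fell and 12 did not pass (median 0.21). FADS2 and SCD, both desaturases, had log2 fold changes of 1.54 (adjusted p 0.0108) and 1.70 (0.0167), and FADS1 one of 0.54 (0.0199). Of the 21 tested genes of cholesterol synthesis and uptake, 9 rose and none fell (median 0.43), among them DHCR7 (0.89, adjusted p 0.0149), SQLE (0.76, 0.0167) and HMGCS1 (1.02, 0.0167). None of the 11 tested genes of acyl-CoA activation and glycerolipid assembly passed (median 0.18), nor of the 5 of the PNPLA family and its co-activator (0.12), the 8 of mitochondrial fatty acid synthesis (-0.05) or the 6 of cytosolic NADPH supply (0.05).

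Among 16 tested genes that supply acetyl-CoA and citrate, 1 passed: IDH1, the cytosolic NADP-dependent isocitrate dehydrogenase, went from 69.5, 80.4 and 75.0 CPM to 103, 108.5 and 118 CPM (log2 fold change 0.55, adjusted p 0.0267), while the list's median was -0.09. Among 13 genes that control acetyl-CoA carboxylase or use malonyl-CoA, 1 passed, in the other direction. PRKAG2, which encodes a gamma subunit of AMPK, the kinase that phosphorylates and inhibits acetyl-CoA carboxylase, fell from 43.9, 36.7 and 35.0 CPM to 26.9, 26.2 and 21.6 CPM (log2 fold change -0.63, adjusted p 0.0267). The background for every list is the 2.47% of tested genes called higher and 1.77% called lower at 24 h against 0 h.

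With the replicate block, where 12.6% of all tested genes were called higher and 11.6% lower, more genes of these lists passed. Higher were 3 of the 16 supply genes, 1 of the 7 genes around ChREBP, 3 of the 11 SREBP and LXR regulators, 7 of the 17 desaturation and elongation genes, 4 of the 11 glycerolipid genes, 13 of the 21 cholesterol genes and 1 of the 6 NADPH genes. Lower were 4 of the 13 genes that control acetyl-CoA carboxylase, 1 of the 8 of mitochondrial synthesis and 1 of the 17 of desaturation and elongation. No gene of the PNPLA list passed with the block.

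**Figure D4:**
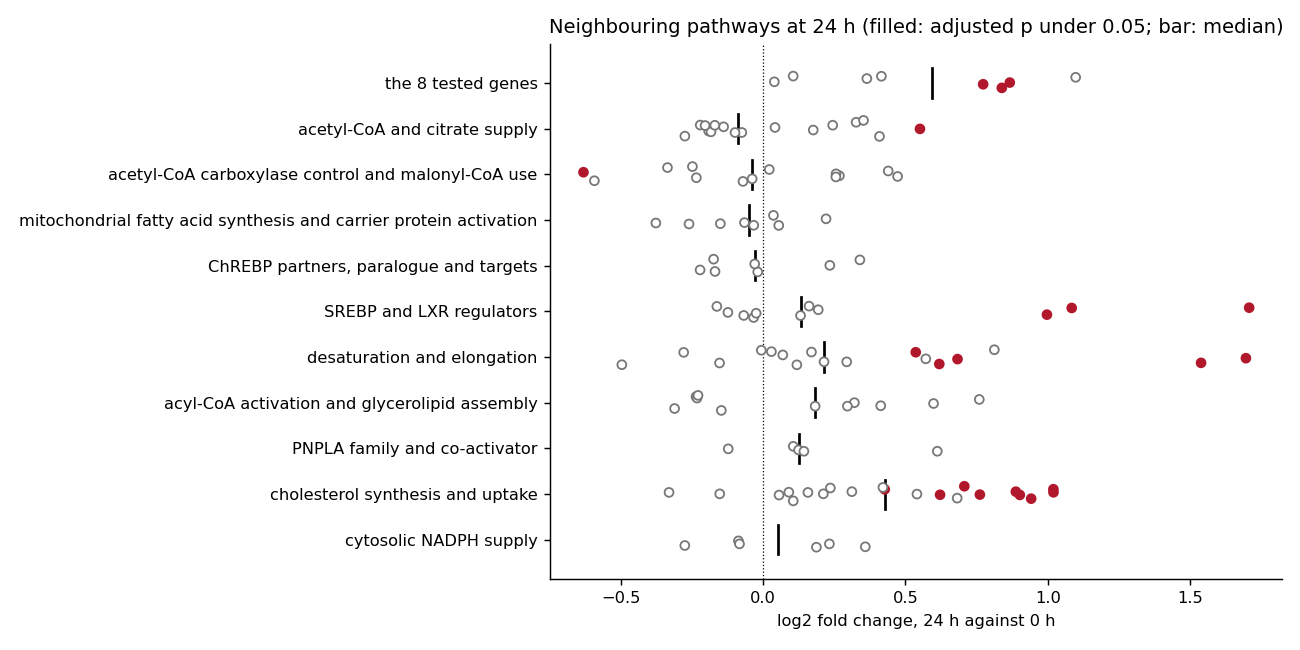
Log2 fold change at 24 h against 0 h of each tested gene in the 8-gene set and in 10 neighbouring lists (1 point per gene, filled red at an adjusted p under 0.05; bars are medians). Filled points on the right are frequent in the regulator, desaturation and cholesterol lists, and PRKAG2 is the single filled point below 0.

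The genes whose pattern over the 9 libraries was most like each of 4 enzymes were named from 10840 genes of at least 5 CPM, by Pearson's r of log2 CPM. The libraries share the time course and the offset of replicate 1, so r describes these 9 libraries only. For FASN they were CDH11 (r = 0.993), ANTXR1 (0.983) and DIP2C (0.9801). For ACACA they were TANC2 (0.992), LAMC1 (0.988) and GNAO1 (0.986), and for ACSS2 they were PLEKHB1 (0.995), MAGED1 (0.993) and TRIB1 (0.993). For ACLY they were FERMT1 (0.971), LYPD6 (0.969) and PPM1D (0.964).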

How the data were processed

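RNA-seq was done on 9 LN229 libraries made with a stranded mRNA kit from total RNA of integrity number above 9, per the labels' protocols. The authors deposited raw counts per Ensembl gene; bcl2fastq 2.20.0.422, STAR 2.7.4a and the build GRCh38 are named in the submitters' processing notes, and the counting program, annotation release and strand setting are not given in the sources used here. Groups came from the sample titles. Totals were 22222298 to 25848242 counts; 3 counts set the floor, and intervals on counts cover counting error only.

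Symbols were matched by Ensembl identifier (19733 genes named), and exon lengths and coordinates came from GENCODE release 29 (23252 of 23727 genes). Genes passing filterByExpr (15273) were scaled by TMM; all 9 libraries entered 1 edgeR model (version 4.0.16, R 4.3.3) with a mean for each group; quasi-likelihood tests were two-sided, with Benjamini-Hochberg adjustment over all tested genes. Standard errors were derived from the F statistics. Ratios used exact permutation tests in scipy 1.17.1. Promoter windows came from RefSeq (GRCh38.p14).

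Alternatives were RLE and upper-quartile scaling, DESeq2 1.42.0, no filter, only the groups compared, a replicate block, each library left out with and without the block, and, added after seeing the data, replicate 1 left out of all groups. Deviations from group means of same-numbered libraries (numbers 1, 2 and 3) correlated across genes at 0.476, 0.432 and 0.415 between 0 h and 8 h. Different numbers gave at most 0.0108 there. Between 0 h and 24 h the same numbers gave 0.367, 0.164 and 0.251. There, replicate 2 of 24 h correlated more with replicate 3 of 0 h (0.270) than with replicate 2 of 0 h. The titles' numbers were used as a block in an alternative fit, and its pairing of 0 h with 24 h is less certain. Between 8 h and 24 h the same numbers gave 0.423, 0.0367 and 0.404, so number 2 gave little sign of pairing there. The block was fitted over all 3 groups. Blocked results of 24 h against 8 h and of the F test therefore assume this pairing too.

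Named were the 9 genes; from each of the 10 lists up to 3 called genes of smallest p at 24 h against 0 h, with SREBF1, SREBF2, MLX, MLXIP and THRSP in any case; and the 3 genes most like each of ACLY, ACACA, FASN and ACSS2. The genes and lists were chosen with earlier results of these data known.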

Additional observations from a re-analysis of the deposited data

Results flagged for a closer look

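Of the 21 tested fatty acid synthesis and list genes named above, 14 had an adjusted p under 0.05 in edgeR's quasi-likelihood test of 24 h against 8 h, that is, of the difference between their changes at 24 h and 8 h from the same untreated libraries (4.56% of all tested genes). The 11 list genes among them were, SREBF1 and SREBF2 apart, picked as called at 24 h against 0 h, which uses the same 24 h libraries, so their passing is largely fixed by that choice and their values are a description. Among the fatty acid synthesis genes the differences in log2 fold change were 0.95 for ACSS2, 0.69 for FASN and 0.62 for ACACA. Among SREBP regulators they were 1.77 for INSIG1, 1.03 for SREBF2 and 0.98 for SREBF1. Among desaturases they were 1.72 for SCD, 1.53 for FADS2 and 0.53 for FADS1, and among cholesterol genes 1.02 for HMGCS1, 0.91 for DHCR7 and 0.80 for SQLE. IDH1 differed by 0.57, and PRKAG2, the single gene in the other direction, by -0.67.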

How the results depend on the processing

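Against 0 h at 24 h, where 3 of the 8 genes and 649 of all genes passed, the replicate block gave 6 and 3687, DESeq2 5 and 1656, leaving out replicate 1 of all groups 5 and 2616, and the fit of the 2 groups alone 3 and 124. Leaving out single libraries gave 0 to 5 of the 8 genes (0 to 899 of all), and with the block 4 to 6 (2213 to 3816). At 24 h against 8 h, where 3 and 696 passed, the block gave 6 and 3130, DESeq2 6 and 1486, leaving out replicate 1 of all groups 7 and 3072, and the 2 groups alone 6 and 1787; single libraries left out gave 0 to 7 (0 to 2545), and with the block 4 to 7 (1179 to 5432). The F test called 3 of the 8 (3.64% of all tested genes), and 6 with the block (19.6%). Its DESeq2 counterpart called 6, and the fit without replicate 1 of all groups 5. Leaving out single libraries gave 0 to 5, and 4 to 7 with the block. For these further F test fits the share of all genes was not counted, so their numbers have no background. FASN, ACACA and ACSS2 were higher at 24 h than at 0 h and 8 h in every fit. At 8 h no fit called any gene. Signs changed for values near 0 that no fit called. At 8 h, ACLY went to -0.042 and MID1IP1 to 0.051 without replicate 1 of all groups. With single libraries left out, with or without the block, ACLY ran from -0.042 to 0.088, ACSS2 from -0.25 to 0.092, ACACA from -0.0091 to 0.27, MID1IP1 from -0.091 to 0.072 and PNPLA3 from -0.32 to 0.20 at 8 h. At 24 h against 0 h MID1IP1 ran from -0.028 to 0.12 and SLC25A1 from -0.0077 to 0.24. The FASN to ACACA log2 difference ran from -0.033 to 0.18. The cause of these shifts was not tested. MLXIPL, with at most 4 counts, is limited by depth.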

Other observations

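The spread between libraries differed among the 8 tested genes and moved with the replicate number. The biological coefficient of variation fitted by edgeR was 0.251 for PNPLA3 and 0.166 for ACSS2 without the replicate block, and 0.111 and 0.0848 with it. It was 0.0960 for ACLY and 0.117 for FASN without the block, and 0.0810 and 0.0926 with it. Over all tested genes the common value was 0.137 without the block and 0.0956 with it.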
